A study of Mus musculus with 2 samples.

Results

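S100, annexin and galectin effector genes were followed as 10 members of 3 families: the S100 genes S100a4, S100a6, S100a10, S100a11 and S100a13, the annexin genes Anxa1, Anxa2 and Anxa5, and the galectin genes Lgals1 and Lgals3. They were chosen by symbol as calcium-binding, phospholipid-binding and galactoside-binding proteins that are higher in effector T cells, without the calprotectin genes S100a8 and S100a9. All 10 were found among the 22609 genes counted. The cells were CD8+ regulatory T cells, sorted from the spleens of naïve mice aged 3 months. The libraries were 1 from mice labelled Tgfbr2-/-Eomes-/-, called DKO here, and 1 from WT mice. By that label, DKO mice lack the TGF-beta receptor chain Tgfbr2 and the T-box transcription factor Eomes. The labels leave out how and in which cells the alleles were deleted and how many mice gave each library. The question is what the joint loss of both genes does to these cells, here to their S100, annexin and galectin transcripts.

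S100 proteins are small EF-hand proteins that, as dimers, bind other proteins when calcium rises. Annexins bind phospholipid membranes when calcium rises, and several pair with an S100 dimer to bridge membranes or tether them to the cytoskeleton. Galectins bind galactose-containing glycans on surface receptors and can cross-link them. In T cells, genes of these families are low in naive cells and are induced as cells become effector or memory cells that migrate through tissue. The same genes are abundant in neutrophils, monocytes and macrophages.

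Reads assigned to genes summed to 19661212 in the DKO library and 22307065 in the WT library. With 1 library per genotype there is no replicate check and no p-value. Each interval is exact, at the 95% level, and reflects read counting alone, so it sets library against library and not genotype against genotype. Levels are CPM, read counts relative to the TMM-scaled library size, and each ratio is DKO over WT. The limit for a call was a ratio of 2-fold or more in either direction with an interval that did not include 1, and a gene needed 1 CPM in 1 of the libraries to be compared. The targeted genes were on the side of the labels: Eomes had 3589 counts in the DKO library and 10292 in the WT library, and Tgfbr2 had 4882 and 7825. Eomes was 2.61-fold lower (2.52 to 2.72) and met the limit. Tgfbr2 was 1.46-fold lower (1.41 to 1.51) and did not, and the T cell receptor signalling gene Vav1, which the label does not name, was also 1.46-fold lower. Whole-gene counts do not check a deletion of single exons. The CD8 T cell markers Cd3d, Cd3e, Cd3g, Cd8a and Cd8b1 were abundant in both libraries, at summed levels of 4210 CPM in the DKO library and 4475 CPM in the WT library.

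The promoters of the 4 members that were at least 2-fold higher in the DKO library are shown because these genes differed most between the libraries. Each is the stretch of 250 bases before the annotated start, on the strand of the gene, from RefSeq on GRCm38.p6. Capitals mark the Smad box CAGAC on either strand, a short element that Smad proteins of the TGF-beta pathway can bind. The S100a4 stretch is chr3:90603520-90603769 on the plus strand, that of S100a6 chr3:90612644-90612893 on the plus strand, that of Anxa1 chr19:20390672-20390921 on the minus strand and that of Lgals3 chr14:47373610-47373859 on the plus strand.
S100a4: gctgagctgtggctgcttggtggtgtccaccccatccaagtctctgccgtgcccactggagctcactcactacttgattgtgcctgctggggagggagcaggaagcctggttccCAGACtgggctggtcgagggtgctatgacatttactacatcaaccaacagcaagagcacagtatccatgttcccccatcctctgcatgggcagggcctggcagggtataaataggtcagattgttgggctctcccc
S100a6: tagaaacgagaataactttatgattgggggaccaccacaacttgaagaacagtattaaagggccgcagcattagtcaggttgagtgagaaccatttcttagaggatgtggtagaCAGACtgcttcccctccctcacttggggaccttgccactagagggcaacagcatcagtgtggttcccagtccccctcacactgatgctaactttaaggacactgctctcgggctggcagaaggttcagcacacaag
Anxa1: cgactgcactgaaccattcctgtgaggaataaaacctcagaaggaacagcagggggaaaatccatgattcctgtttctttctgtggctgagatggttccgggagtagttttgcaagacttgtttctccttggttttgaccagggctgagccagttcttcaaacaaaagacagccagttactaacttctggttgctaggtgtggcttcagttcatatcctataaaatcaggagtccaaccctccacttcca
Lgals3: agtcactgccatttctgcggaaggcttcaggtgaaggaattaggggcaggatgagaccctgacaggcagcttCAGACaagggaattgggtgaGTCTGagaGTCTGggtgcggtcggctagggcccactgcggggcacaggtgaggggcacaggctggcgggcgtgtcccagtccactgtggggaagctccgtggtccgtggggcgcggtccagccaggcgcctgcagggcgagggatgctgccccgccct

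Of these promoters, S100a4 and S100a6 each held 1 Smad box, which starts 136 bases before the start in both. That of Lgals3 held 3, of which 2 match on the opposite strand, and that of Anxa1 held 0. Promoters were matched by symbol for 8 of the 10 members, all but S100a10 and Lgals1. Smad boxes were in 4 of these 8 promoters (S100a4, S100a6, Lgals3 and Anxa5), and in 42.2% of the 32851 mouse promoter windows of the same length. The T-box core GGTGTGA, the element of Eomes and its relatives, was in 1 of the 8, that of S100a13, and in 3.33% of all windows. The AP-1 element TGANTCA was in 2 of the 8, Anxa2 and S100a11, and in 6.75% of all windows. Both strands were searched, and no match overlapped a match of another of these motifs. A match is a run of letters and was not tested as a binding site.

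All 10 members had a higher CPM in the DKO library, and 4 of them were at least 2-fold higher: S100a4, Anxa1, Lgals3 and S100a6. None was at least 2-fold lower, and the other 6 met neither limit. Across the 11735 genes compared, 11.6% passed the limit upwards and 3.6% downwards. Of the 10 members, 9 reached 100 CPM in at least 1 of the libraries, where calls were rarer: among all 2627 such genes 2.17% were higher and 0.761% lower. S100a4, Anxa1, Lgals3, S100a13 and Anxa5 reached 100 CPM in the DKO library only. Because they passed through the library in which they were higher, this share and ranks among such genes are no test of them. Intervals lay above 1 for 9 members and held 1 for S100a11, whose interval moved above 1 under 2 other scalings given below. The median log2 ratio of the members was 0.60, against 0.00 for all genes compared and -0.09 for genes with at least 100 CPM. Log2 ratios above 0 were found for 50.2% of all genes compared and for 34.9% of those with at least 100 CPM. Together the members held 0.305% of gene counts in the DKO library and 0.174% in the WT library. In bulk RNA, more cells of a type and more RNA per cell cannot be told apart. Neutrophil markers, with S100a8 and S100a9 among them, were higher in the same library too, at summed levels of 2580 CPM in the DKO library and 557 CPM in the WT library. Those of monocytes and macrophages were also higher, at 1844 CPM and 997 CPM. The part of these cell types in the member values was not tested. The plot of members by library shows the members' levels.

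**Figure D1:**
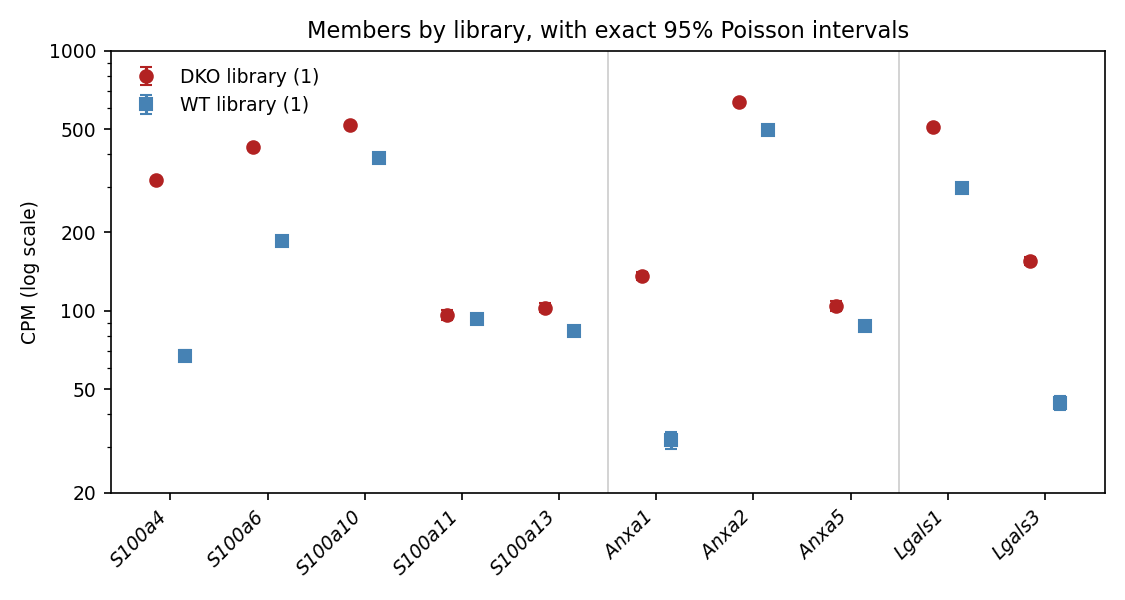
CPM of each member (y axis, log scale) in the DKO library (circles) and the WT library (squares), with exact 95% Poisson intervals of the count; vertical lines part the S100, annexin and galectin genes. Each DKO point lies above its WT point, with the widest gaps for S100a4 (317 and 67.3 CPM), Anxa1 (136 and 31.8 CPM) and Lgals3 (156 and 44.3 CPM) and the narrowest for S100a11 (96.2 and 93.0 CPM).

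S100a4, which binds non-muscle myosin and is linked to cell motility, had the largest ratio of the members. It had 6345 counts in the DKO library and 1476 in the WT library, or 317 CPM and 67.3 CPM. The ratio was 4.72 (interval 4.46 to 4.99), at rank 415 from the top of all 11735 genes compared. It was at rank 9 among the 2627 genes of 100 CPM or more, a level it reached in the DKO library only. S100a6, also called calcyclin, had 8514 counts in the DKO library and 4086 in the WT library, or 426 CPM and 186 CPM. Its ratio was 2.29 (2.20 to 2.37), at rank 1094 of all genes compared and rank 39 of those with 100 CPM or more. These neighbours on chromosome 3 were both higher, but by different factors: S100a4 had 0.745 reads for each read of S100a6 in the DKO library and 0.361 in the WT library.

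S100a10, which does not bind calcium and forms a complex with annexin A2, had 10373 counts in the DKO library and 8519 in the WT library. The levels were 519 CPM and 388 CPM, a ratio of 1.34 (1.30 to 1.37). Its partner Anxa2 is described below and had almost the same ratio. S100a13, which takes part in the release of proteins that lack a signal sequence, had 2057 counts in the DKO library and 1834 in the WT library. Its ratio was 1.23 (1.16 to 1.31), at 103 CPM in the DKO library and 83.6 CPM in the WT library. S100a11, a partner of annexin A1, was the 1 member whose interval held 1, with 1923 counts in the DKO library and 2041 in the WT library. Its ratio was 1.03 (0.971 to 1.10), at 96.2 CPM and 93.0 CPM. Whether the interval held 1 depended on the scaling: it was 1.004 to 1.14 under scaling by total gene counts and 1.17 to 1.32 under scaling by T cell receptor genes. Of the 50-base stretches in the S100a11 transcript, 41.1% also occur in transcripts of other genes, foremost the processed pseudogene Gm12854. Such reads can align to more than one place, so the S100a11 level is uncertain. No such sharing with annotated transcripts of another locus was found for the other 9 members. Of the annotated S100a4 exon bases, 51.7% also belong to Gm42674, a gene annotated on the same strand and not analysed here, so reads of both cannot be split.

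Among the annexins, Anxa1 had the largest ratio. Anxa1 encodes a glucocorticoid-induced protein that signals through formyl peptide receptors and limits inflammation. It had 2720 counts in the DKO library and 698 in the WT library, or 136 CPM and 31.8 CPM. Its ratio was 4.28 (3.93 to 4.65), at rank 468 of all genes compared. It was at rank 11 among genes with at least 100 CPM, a level it reached in the DKO library only. Anxa2, the membrane-binding partner of S100a10, had 12734 counts in the DKO library and 10847 in the WT library, or 637 CPM and 494 CPM. The ratio was 1.29 (1.26 to 1.32). For each Anxa2 read there were 0.815 reads of S100a10 in the DKO library and 0.785 in the WT library, so the genes of this complex kept nearly the same proportion. Anxa5, whose product binds phosphatidylserine on dying cells and is used as a stain for it, had 2082 counts in the DKO library and 1920 in the WT library. Its ratio was 1.19 (1.12 to 1.27), at 104 CPM and 87.5 CPM.

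Both galectin genes were higher in the DKO library, Lgals3 past 2-fold and Lgals1 not. Lgals3 encodes galectin-3, which can form multimers and lattices on glycoproteins. It had 3120 counts in the DKO library and 972 in the WT library, or 156 CPM and 44.3 CPM. The ratio was 3.52 (3.28 to 3.79), at rank 609 of all genes compared. Among genes with at least 100 CPM, which it reached in the DKO library only, it was at rank 17. Lgals1 encodes galectin-1, a dimer that can induce death of activated T cells. It had 10193 counts in the DKO library and 6530 in the WT library, or 509.8 CPM and 298 CPM. The ratio was 1.71 (1.66 to 1.77), the next below the 2-fold limit, and Lgals1 passed that limit (log2 ratio of 1.04) under scaling by T cell receptor genes. S100a6, at 2.29, was the member just past the limit.

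**Figure D2:**
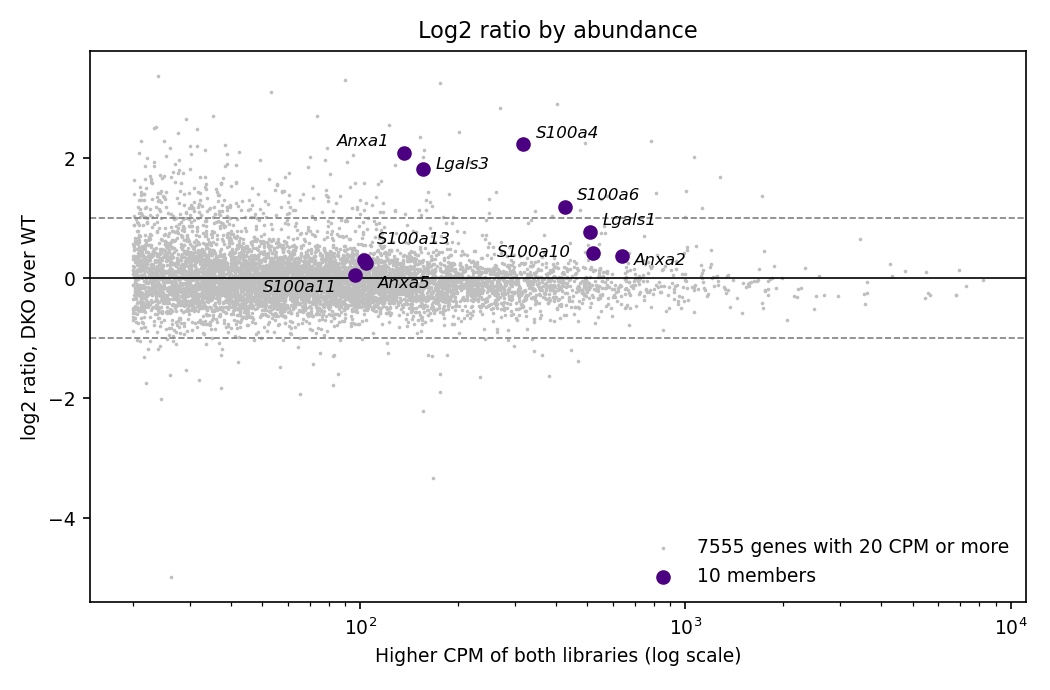
Log2 ratio of DKO over WT (y axis) against the higher CPM of both libraries (x axis, log scale) for the 7555 genes with at least 20 CPM (grey), with the 10 members in purple; dashed lines mark 2-fold. S100a4, Anxa1, Lgals3 and S100a6 lie above the upper dashed line, and the other 6 lie between it and 0.

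Levels of different members were compared per kilobase of the longest protein-coding transcript. The highest member in both libraries was S100a10, at 757 CPM per kilobase in the DKO library and 567 CPM per kilobase in the WT library. Next in the DKO library came Lgals1 and S100a4, each at 637 CPM per kilobase, whose intervals overlapped. S100a6 followed at 583, Anxa2 at 440.2, S100a11 at 188, S100a13 at 144, Lgals3 at 110.0, Anxa1 at 81.3 and Anxa5 at 60.2 CPM per kilobase. In the WT library the order after S100a10 was Lgals1 at 372, Anxa2 at 342, S100a6 at 255, S100a11 at 182, S100a4 at 135, S100a13 at 117, Anxa5 at 50.6, Lgals3 at 31.2 and Anxa1 at 19.0 CPM per kilobase. Apart from that pair, neighbours in either order differed by more than counting error, but the rank of S100a11 is uncertain beyond that because it shares sequence with other genes. S100a4 thus held rank 3 of the 10 in the DKO library and rank 6 in the WT library, and Anxa1 was the lowest member in the WT library only. When the length was that of all annotated exons, Lgals1 took the first rank in both libraries, at 565 CPM per kilobase in the DKO library and 330 CPM per kilobase in the WT library, and Anxa1 was lowest in both. By that length S100a4 held rank 2 in the DKO library and rank 7 in the WT library. The levels became 171 and 133 CPM per kilobase for Anxa2, 312 and 136 for S100a6, 428 and 320.4 for S100a10 and 46.7 and 10.9 for Anxa1, in the DKO library and the WT library.

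The other genes of the families, without S100a8 and S100a9, which are given below, were mostly low or at 0, though Anxa6 was above every member in CPM. Of 9 other S100 genes, 1 had at least 1 CPM: S100a1, a muscle and nerve calcium sensor, had 109 counts in the DKO library and 58 in the WT library, a ratio of 2.06 (1.49 to 2.89). S100a5, S100a7a, S100a14, S100b and S100g were listed at 0 in both libraries. A count of 0 allows up to 0.150 CPM in the DKO library and 0.137 CPM in the WT library, at a floor of 3 counts per library. S100a3 had 14 counts in the DKO library and 0 in the WT library. S100z had 5 counts in the DKO library and 0 in the WT library, and S100a16 had 0 and 5. S100a2, which was not on the list of the 9, had 0 counts in the DKO library and 10 in the WT library.

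Among 9 other annexins, 5 reached 1 CPM, of which 1 passed 2-fold upwards and 0 downwards, against 11.6% and 3.6% of all genes compared. The median log2 ratio of these annexins was -0.03. It turned positive under scaling by total gene counts and became 0.24 under scaling by T cell receptor genes. Anxa3, an annexin abundant in neutrophils, had 248 counts in the DKO library and 114 in the WT library, a ratio of 2.39 (1.90 to 3.01). Anxa4 had 279 and 158 counts, a ratio of 1.94 (1.59 to 2.37). Anxa6 had 1413 CPM in the DKO library and 1500 CPM in the WT library, a ratio of 0.942 (0.927 to 0.957). The ratios of Anxa11 and Anxa7 were 0.902 and 0.979. These 3 ratios below 1 turned above 1 under scaling by T cell receptor genes, and that of Anxa7 also with total counts as the scale. Anxa8 had 18 counts in the DKO library and 0 in the WT library, Anxa9 had 17 and 6 counts, and Anxa10 and Anxa13 were listed at 0 in both.

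Of 7 other galectins, Lgals9 and Lgals8 had at least 1 CPM, and neither was past 2-fold, against 11.6% higher and 3.6% lower among all genes compared. Lgals9, which encodes a ligand of the receptor TIM-3, had 217 CPM in the DKO library and 214 CPM in the WT library, a ratio of 1.02 (0.976 to 1.06). Lgals8 had 54.3 CPM and 59.5 CPM, a ratio of 0.912 (0.840 to 0.989) that turned above 1 under scaling by T cell receptor genes. Lgals7 had 0 counts in the DKO library and 10 in the WT library, and Lgals2, Lgals4, Lgals6 and Lgals12 were listed at 0 in both.

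**Figure D3:**
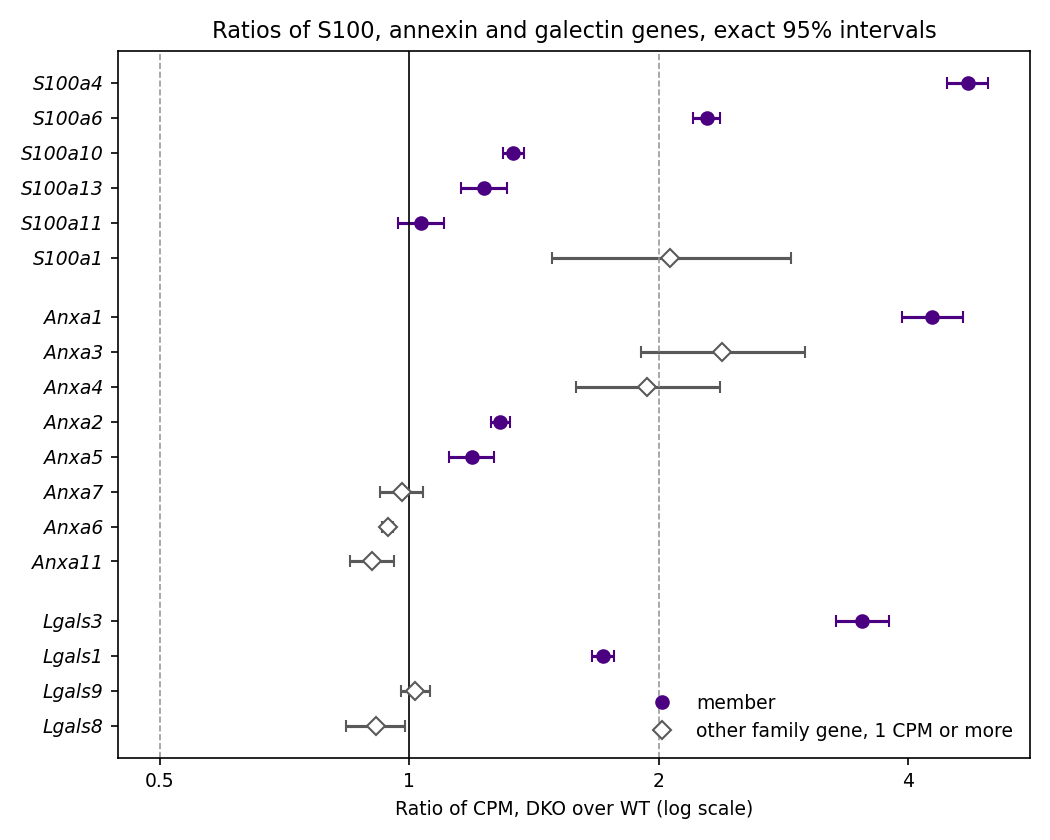
Ratio of CPM, DKO over WT (x axis, log scale), with exact 95% intervals for the members (filled circles) and the other family genes with at least 1 CPM (open diamonds), without the calprotectin genes S100a8 and S100a9. Dashed lines mark 2-fold in either direction. Among the genes shown, the ratios of each family run from near 1 (S100a11 at 1.03, Anxa11 at 0.902, Lgals8 at 0.912) to past 3.5-fold (S100a4 at 4.72, Anxa1 at 4.28, Lgals3 at 3.52).

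The S100 members lie on chromosome 3 in separate stretches. By the order of names in RefSeq on GRCm38.p6, 12 S100 genes run from S100a1 to S100a9, with S100a13, S100a4 and S100a6 among them, while S100a11 and S100a10 lie side by side elsewhere. In the longer stretch 6 genes had at least 1 CPM. Of these, 5 were at least 2-fold higher in the DKO library, against 11.6% of all genes compared: S100a1, S100a4, S100a6, S100a8 and S100a9. The calprotectin genes S100a8 and S100a9, which neutrophils and monocytes make in large amounts, had ratios of 4.78 and 4.08. Between the called genes lay others at or near 0, such as S100a5 and S100a7a. Of the 20 genes flanking the stretches, 5 on each side, 3 had at least 1 CPM, and none was past 2-fold: Snapin had a log2 ratio of 0.20, Ilf2 -0.25 and Ints3 -0.41. These flanking genes were chosen by place after the members' values were known. The stretches themselves were drawn around the S100 members, so the 5 calls count S100a4 and S100a6 again and are no separate test. Anxa5 lies elsewhere on chromosome 3, Anxa1 on 19, Lgals1 on 15, Lgals3 on 14 and Anxa2 on 9, the chromosome of Tgfbr2 and Eomes.

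**Figure D4:**
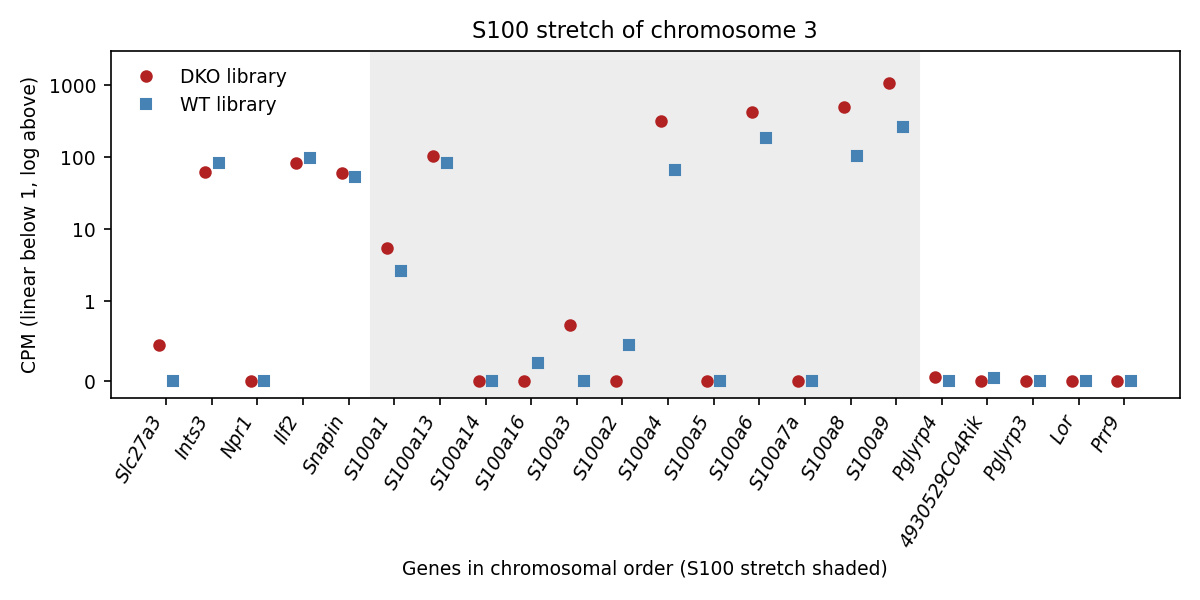
CPM (y axis, linear below 1 and log above) in the DKO library (circles) and the WT library (squares) of genes in chromosomal order, with the S100 stretch shaded. S100a4, S100a6, S100a8 and S100a9 are high and differ between the libraries, S100a13 differs little (103 and 83.6 CPM), and the genes between and beyond them on the right are at or near 0.

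Binding partners and receptors of annexins and S100 proteins differed in both directions. Of 11 such genes at or above 1 CPM, 3 passed 2-fold upwards, 1 downwards and 7 not at all. Their median log2 ratio was 0.90, against 0.00 for all genes compared, of which 11.6% passed 2-fold upwards and 3.6% downwards. Fpr2, a formyl peptide receptor for annexin A1, had 257 counts in the DKO library and 67 in the WT library, a ratio of 4.21 (3.20 to 5.59). The related Fpr1 had 239 and 134 counts, a ratio of 1.96 (1.58 to 2.44). Tlr4, a receptor of S100A8 and S100A9, had 219 and 65 counts, a ratio of 3.70 (2.79 to 4.95). Plau, which makes the plasminogen activator urokinase, was the other higher gene, with 47 and 25 counts. Markers of neutrophils, monocytes and macrophages, which express Fpr1, Fpr2 and Tlr4, were higher in the same library, and their part in these ratios was not tested. The intracellular partners Cacybp, Myh9 and Ahnak had ratios below 1. Cacybp, which binds S100A6, had 80.1 CPM in the DKO library and 139 CPM in the WT library and was 1.74-fold lower (1.64 to 1.84). Myh9, the myosin heavy chain bound by S100A4, had 2404 CPM and 2949 CPM, a ratio of 0.815, and Ahnak, a scaffold bound by the annexin A2 and S100A10 complex, had a ratio of 0.961 that turned above 1 under scaling by T cell receptor genes. The lower gene was Ager, a receptor of several S100 proteins, with 4 and 33 counts.

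Surface ligands of galectins and the enzymes that build their glycans had a median log2 ratio of 0.21. Of these 12 genes, 3 passed 2-fold upwards and 0 downwards, against 11.6% and 3.6% of all genes compared. Lag3, an inhibitory receptor that galectin-3 binds, had 379 counts in the DKO library and 127 in the WT library, a ratio of 3.27 (2.67 to 4.04). Havcr2, which encodes TIM-3, had 434 and 179 counts, a ratio of 2.66 (2.23 to 3.18). Gcnt1, the enzyme of core-2 O-glycans that galectin-1 binds, had 263 and 123 counts, a ratio of 2.35 (1.89 to 2.93). The lysosomal glycoprotein gene Lamp2 had a ratio of 1.76 (1.64 to 1.89). The abundant ligand genes Ptprc and Spn had ratios of 1.03 and 1.19. St6gal1, whose sialic acid cap blocks galectin-1 binding, had 360.0 CPM in the DKO library and 328 CPM in the WT library, a ratio of 1.10 (1.06 to 1.13).

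Genes that set phosphatidylserine exposure, the signal that annexin A5 binds, were past 2-fold in 0 of 8 cases. Of all genes compared, 11.6% passed 2-fold upwards and 3.6% downwards, so 0 calls among so few genes does not set this list apart. Its median log2 ratio was -0.03, which turned positive under scaling by total gene counts and became 0.23 under scaling by T cell receptor genes. Plscr1, an interferon-induced scramblase family gene, had a ratio of 1.70 (1.38 to 2.11) at 11.4 CPM in the DKO library and 6.70 CPM in the WT library. The flippase gene Atp11a was 1.28-fold lower (1.15 to 1.42), and Tmem30a and Atp11b had ratios of 1.12 and 0.908, the last of which turned above 1 under scaling by T cell receptor genes.

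Cytoskeleton and motility genes that accompany S100 and annexin genes in effector T cells had a median log2 ratio of 0.17. Of these 16 genes, 2 passed 2-fold upwards and 0 downwards, a share near the 11.6% and 3.6% of all genes compared. Emp1, a small membrane protein gene, had 219 counts in the DKO library and 40 in the WT library, a ratio of 6.01 (4.27 to 8.64). Lmna, which encodes nuclear lamins A and C, had 392 and 143 counts, a ratio of 3.01 (2.48 to 3.67). Emp3 had 248 CPM in the DKO library and 166 CPM in the WT library, and Itgb1, the integrin beta1 chain, a ratio of 1.45 (1.42 to 1.48). Vim, the intermediate filament gene vimentin, had 991 CPM in the DKO library and 739 CPM in the WT library, a ratio of 1.34 (1.31 to 1.37), the same to 2 decimals as that of S100a10. By contrast Crip1 had a ratio of 1.12 (1.09 to 1.15). Log2 ratios were above 0 for 11 of the 16 genes and below 0 for 5. Those 5 were Ezr, Cnn2, Tln1, Zyx and Msn, with ratios of 0.852, 0.901, 0.910, 0.949 and 0.970. They turned above 1 under scaling by T cell receptor genes.

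Markers of other cell types that express the members were mostly higher in the DKO library, most of all those of neutrophils. For comparison, 11.6% of all genes compared were at least 2-fold higher. All 9 neutrophil markers measured had log2 ratios above 0 and 6 were at least 2-fold higher, and their summed level was 2580 CPM in the DKO library and 557 CPM in the WT library. S100a8 and S100a9, S100 genes themselves, are on this list and among those 6. They made up 1556 CPM of the sum in the DKO library and 364 CPM in the WT library. Ngp, Ltf and Camp, granule genes of neutrophil precursors, had ratios of 7.49, 7.15 and 5.42. For monocytes and macrophages, 9 of 10 log2 ratios lay above 0, 2 genes were at least 2-fold higher, and the sums were 1844 CPM and 997 CPM, with ratios of 2.02 for Lyz2 and 1.90 for Csf1r. Dendritic cell markers summed to 188 CPM in the DKO library and 79.1 CPM in the WT library, with 5 of 7 at least 2-fold higher. NK cell markers summed to 952 CPM and 584 CPM, with 3 of 6 at least 2-fold higher. Ncr1 had a ratio of 2.59, while Itga2 had a ratio of 1.01 and Klre1 was 1.61-fold lower. CD4 T cell markers summed to 218 CPM and 95.5 CPM, with 4 of 5 at least 2-fold higher. None of the markers in these 5 lists was at 0 in either library.

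The remaining marker lists of other cell types also summed higher in the DKO library. Their counts of calls stand against 11.6% higher and 3.6% lower among all genes compared. B cell markers summed to 70.1 CPM in the DKO library and 50.7 CPM in the WT library, with 1 of 6 at least 2-fold higher. Plasma cell markers summed to 398 CPM and 198 CPM, with 1 of 4 higher and 1 lower. Igj alone made up 389 CPM and 189 CPM of these sums. The other plasma cell markers had ratios of 0.962 (Sdc1), 0.378 (Tnfrsf17) and 1.24 (Tnfrsf13b). Platelet markers summed to 35.1 CPM and 15.2 CPM, with 4 of 5 at least 2-fold higher, and erythroid markers to 8.80 CPM and 2.10 CPM, with 2 of 2 higher. Stromal markers summed to 2.30 CPM and 1.28 CPM, with 1 of 1 higher. That gene was Col1a1, with 23 counts in the DKO library and 1 in the WT library. Cdh5 had 13 and 11 counts, Col3a1 10 and 13, and Sparc 0 and 3. The haemoglobin genes Hba-a1, Hba-a2, Hbb-b1 and Hbb-b2 and the collagen gene Col1a2 were listed at 0 in both libraries, and Sparc in the DKO library only. The median log2 ratio of the CD8 T cell markers was -0.15 (0.12 under scaling by T cell receptor genes), with 0 of 5 past 2-fold, and that of T cell receptor and signalling genes -0.28, with 0 of 15 past 2-fold. Cd3d, Cd3e and Cd3g are on both lists. Scaling by T cell receptor genes uses the summed counts of the second list, so it is no independent check on the CD8 T cell markers.

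**Figure D5:**
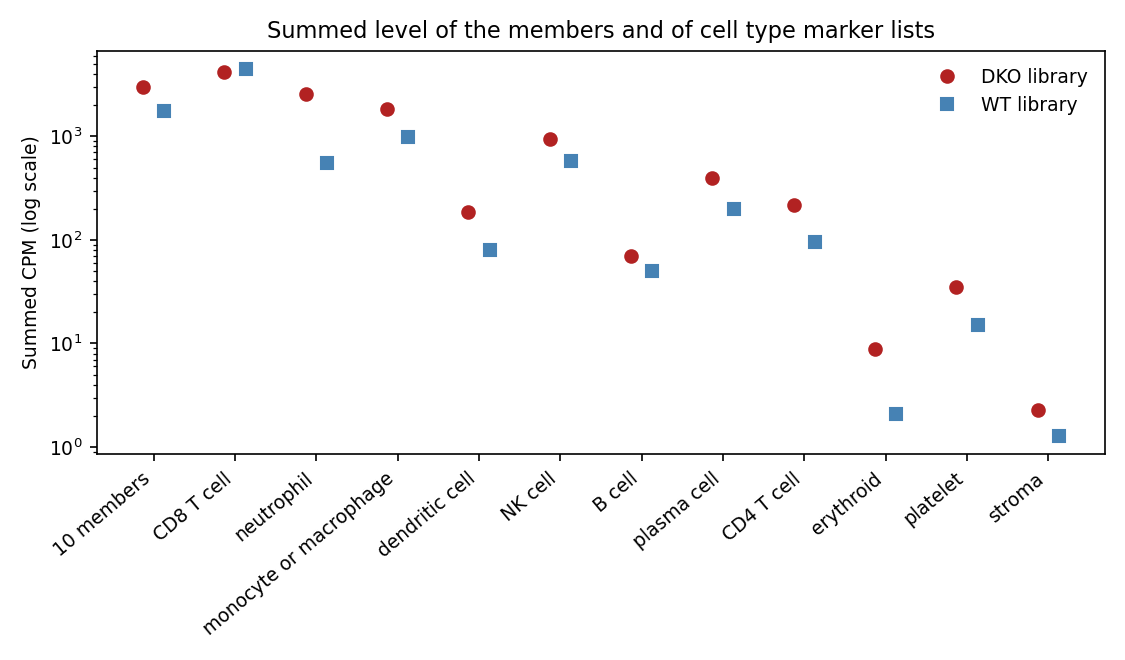
Summed CPM (y axis, log scale) of the 10 members and of each cell type marker list in the DKO library (circles) and the WT library (squares). The members sum to 3004 CPM and 1774 CPM. The neutrophil list, which holds S100a8 and S100a9, shows the widest gap among the lists with over 100 CPM (2580 and 557 CPM). The CD8 T cell list is slightly lower in the DKO library (4210 and 4475 CPM). The median log2 ratio of the CD8 T cell list turns positive under scaling by T cell receptor genes, but that scale is built in part from its own Cd3d, Cd3e and Cd3g.

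With only 2 libraries, likeness to a member can be measured only as a near-equal log2 ratio. Among genes with at least 100 CPM, the 3 nearest to S100a4, at 2.24, were S100a8 at 2.26, the granzyme gene Gzma at 2.29 and Gzmb at 2.13. The 3 nearest to S100a11, at 0.05, were Use1, Tatdn2 and Mthfd1l, each at 0.05.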

How the data were processed

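Per the labels' protocols, total RNA libraries were prepared with Illumina TruSeq chemistry and read as 50-base single ends. Each library's deposited file holds raw counts per gene from the authors. Bcl2fastq, TopHat2 2.0.8b, HTSeq and mm9 are named in the submitters' processing notes. The gene annotation and strand setting were not given in the sources used here, so overlapping genes on opposite strands, such as Anxa2 and Gm16144, cannot be told apart.

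The genotype label set the groups. The 5 rows that name no gene were left out: non-unique alignments were 64.8% (DKO) and 66.4% (WT) of each file's total, reads outside genes 4.45% and 4.89%, and ambiguous reads 0.212% and 0.209%. Counts were scaled by TMM factors (edgeR 4.0.16, R 4.3.3; 1.02 for DKO, 0.983 for WT). Log2 ratios, which set the calls, used a prior count of 0.5, and plain ratios have Clopper-Pearson 95% intervals (scipy 1.17.1). The reads carry no molecular identifiers and may repeat molecules, so intervals and floors reflect counting error alone. No model of variation between mice could be fitted. The scripts were tested on simulated data.

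The members, the gene lists and the rule for named genes were chosen with earlier results of these data known. The rule names the members, up to 4 genes per list that differ most at 5 CPM or more, the other family genes, markers at 0, both targeted genes and the 3 genes nearest to the extreme members. Further genes were named after their values were seen. Lengths, overlaps and shared 50-base stretches came from GENCODE M21 (GRCm38), which is not the files' build and holds transcripts only. Alternatives were scaling by DESeq2 1.42.0 size factors, total counts or T cell receptor genes, other minimums, limits and prior counts, and, added after seeing the data, another gene length. Scaling by T cell receptor genes used the summed counts of the 15 T cell receptor and signalling genes, with Cd3d, Cd3e and Cd3g among them.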

Additional observations from a re-analysis of the deposited data

How the results depend on the processing

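All 10 members kept a log2 ratio above 0 under scaling by DESeq2 size factors, by total counts and by T cell receptor genes and with a prior count of 5. Each of these scalings shifts every log2 ratio upwards by the same amount, so under them no member could turn below 0. Scaling by T cell receptor genes moved the median log2 ratio of all genes to 0.27, and relative to it the member ratios are as before. It gave 5 members at least 2-fold higher, as did a limit of 1.5-fold, with Lgals1 added. A limit of 4-fold gave 2 members, S100a4 and Anxa1. Members at least 2-fold lower were 0 throughout. Over all genes, 1363 were higher and 422 lower. Scaling by T cell receptor genes gave 1846 higher and 265 lower, no minimum gave 1989 higher and 692 lower, and a minimum of 5 CPM gave 739 higher and 146 lower. A limit of 1.5-fold gave 2073 higher and 987 lower, and 4-fold gave 515 and 138. Fewer or more genes entered or passed by construction of these settings. No paired analysis was possible because each genotype has 1 library, and leaving out a library leaves no comparison. Counting error is small for the members, and variation between mice is unmeasured.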

Other observations

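Genes of the same marker list differed from each other in their ratios. Among NK cell markers, Klre1 had 93.1 CPM in the DKO library and 150.3 CPM in the WT library and was 1.61-fold lower (1.52 to 1.71), while Ncr1, Tyrobp, Fcer1g and Klrb1c were 1.72-fold to 2.59-fold higher. Among plasma cell markers, Igj, the antibody joining chain, was 2.06-fold higher (1.98 to 2.14), while Tnfrsf17 had 10 counts in the DKO library and 29 in the WT library. Among neutrophil markers, the early granule genes Mpo and Elane had ratios of 1.27 and 1.30, with an interval of 0.984 to 1.71 for Elane, against 7.49 for Ngp. For each S100a9 read there were 0.460 reads of S100a8 in the DKO library and 0.393 in the WT library.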
